A study of Mus musculus with 10 samples.

Results

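The muscle sample of a survey of alternative splicing in mouse tissues was set against the other 9 tissues of that survey. It was 1 of 10 samples, each a pool of total RNA from 1 tissue of mice of the outbred CD1 strain, with no treatment or genotype named in the labels. The other 9 were brain, heart, intestine, kidney, liver, lung, salivary, spleen and testis. The labels write only muscle, and neither the muscle taken nor the age, sex or number of the pooled animals is given in the sources used here. There was 1 sample per tissue and no replicate, so every difference below describes these 10 samples, carries no error between animals and has no test.

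Skeletal muscle is made of long multinucleate fibres packed with contractile filaments, and many genes of the contractile and calcium-handling machinery, among them those for troponin T, tropomyosin and titin, are spliced in muscle in ways that differ from other tissues. Splicing factors of the MBNL, CELF and RBFOX families are known to take part in this. Heart, the other striated muscle, shares many contractile proteins with skeletal muscle and uses related isoforms of others. An alternative exon that can be kept or skipped (a cassette exon) leaves a trace in the messenger RNA in 3 places. When it is kept, its body and the junctions on both of its sides are present, and when it is skipped, the junction that joins its neighbours is present instead.

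The array measured these pieces separately. It carried 3126 splicing events, named by a Ben number, with 7 probes each and 21882 probes in all. The 3 exon probes lay in the alternative exon (A) and in its flanking exons, C1 on one side and C2 on the other. The 3 junction probes were C1:A and A:C2, which report inclusion, and C1:C2, which reports skipping. What the last kind, INT, measures is not given in the labels or the table. Values ran from 0 to 8.66 on a compressed scale whose base is not stated, so differences are stated in its units, never as folds. The files and reference tables used here pair no event with a gene or a probe sequence. Events are therefore named by number, the label of the sample could not be checked against muscle markers, and no gene list could be counted.

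After each array was centred on its own median, the median of the other 9 tissues was subtracted from the muscle value, and the difference is called the deviation. C1 and C2 were averaged to give the level of a transcript. For the junction index, C1:C2 was subtracted from the average of both inclusion junctions, so that a higher index means more inclusion. The body index was A minus the level. A call is a deviation past 4 robust SDs of all deviations of that measure over the 10 tissues. The thresholds were 2.11 units for a probe, 2.15 for level, 1.61 for the junction index and 1.49 for the body index. Over all events the median deviation in muscle was -0.07 for level, -0.04 for the junction index and -0.02 for the body index.

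Muscle and spleen stood close to each other in ways that bear on all that follows. The muscle array had its quartiles at 1.17, 2.10 and 2.94, against 1.17, 2.11 and 2.95 on the spleen array. The mean distance between the percentiles of the muscle array and those of another was 0.0137 units for spleen, 0.0343 for lung and up to 0.232 for kidney. Spleen and muscle were also high together on 146 probes, most of them lone probes of an event. Results are therefore given with and without what the pair shared, and the part of array processing in it was not tested.

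In the level of transcripts, muscle stood out mainly upwards and often with heart or brain next to it. High transcripts numbered 24 of 3126 (0.768%), and low ones numbered 3 (0.096%). The high deviations ran from 2.17 to 3.99, and the nearest event that was not called stood at 2.14. Muscle had the highest level of all 10 tissues in 17 of the 24, was next to the top in 4 and further down in 3. Heart was the highest of the other tissues in 9 events, brain in 8 and spleen in none. In bulk tissue, fewer cells of a type and less RNA per cell cannot be told apart, and this holds for every level below.

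The event with the highest level deviation, Ben3311, was shared with heart. Its level was 5.01 in muscle, against a lowest of 0.22 in brain, a median of 0.96 and a highest of 4.98 in heart. Lung followed heart at 1.99, so muscle and heart lay far above the other 8 tissues. The deviation of muscle was 3.99 and that of heart 3.96. The body of the alternative exon did not follow the flanks. Its A probe read 3.27 in muscle, against a lowest of 0.90 in testis, a median of 2.93 and a highest of 3.79 in heart. The skipping junction C1:C2 did follow, at 5.17 in muscle and 5.23 in heart, against a median of 1.61. The inclusion junctions differed, with A:C2 at 2.06 in muscle and 2.72 in heart, against a median of 0.32, and C1:A at 0.90 in muscle and 1.97 in heart, against a median of 0.55. The flanks of this event were too dim in the other tissues for an exon call, and its junction index deviated by -2.26.

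In Ben2886, next in size, all 6 exon and junction probes were high together. Its level was 5.71 in muscle, against a lowest of 1.33 in testis, a median of 1.91 and a highest of 5.77 in heart. Spleen followed at 2.53. The deviations of the 6 probes lay between 2.97 for C2 and 4.96 for A:C2, while the junction index deviated by 0.23. All 6 probes were thus high in both striated muscles. The medians of the other tissues were 1.15 for C1:A, 0.59 for A:C2 and 0.89 for C1:C2, beside an INT median of 1.21 over all arrays. At such dim values the balance of inclusion and skipping in those tissues cannot be read, so it was not compared with that of muscle.

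**Figure D1:**
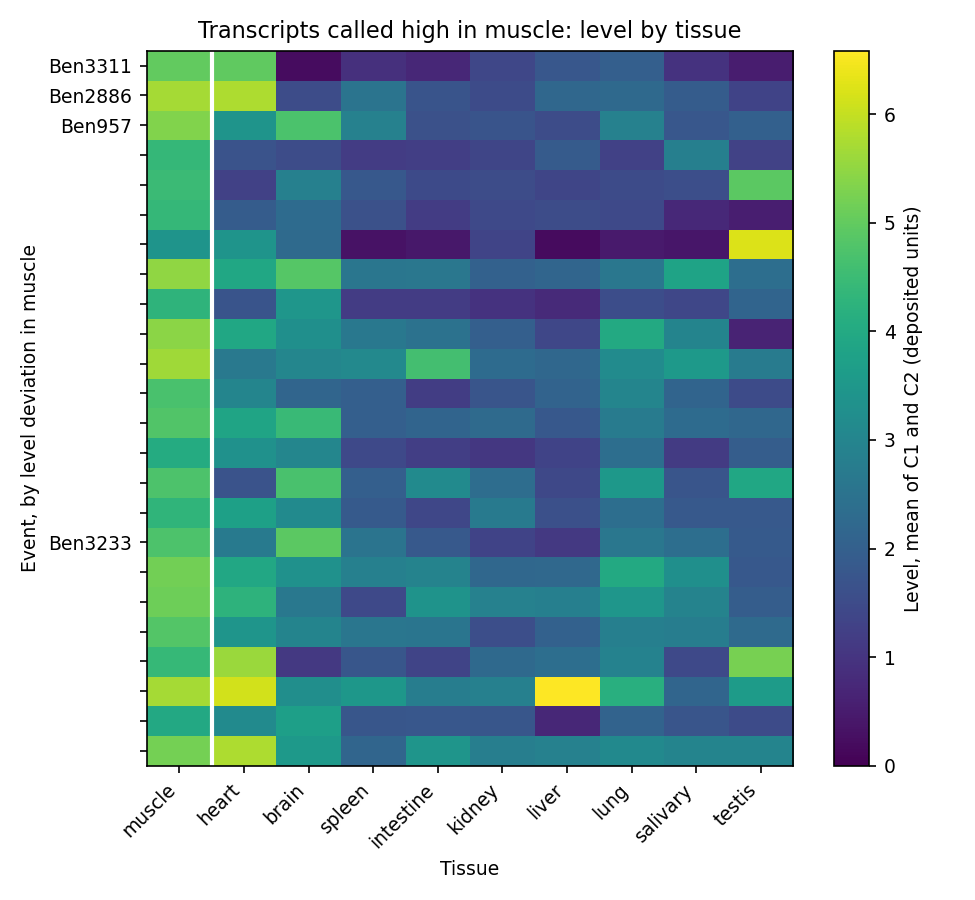
Level of the 24 transcripts called high in muscle (rows, ordered by the muscle deviation) in each tissue (columns, muscle first), as the mean of the C1 and C2 probes in deposited units. Muscle is bright in every row; heart is as bright in the top 2 rows, Ben3311 (5.01 in muscle, 4.98 in heart) and Ben2886 (5.71 in muscle, 5.77 in heart), and spleen is below muscle in every row.

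Most of the high transcripts were backed by probes outside the flanks. Both flanks exceeded 2 robust SDs of the probe deviations (1.05 units, the support threshold) in 23 of the 24 events. The call on the mean of the flanks nearly ensures this, so it is no separate support. Of the probes that the level did not use, C1:C2 reached 1.05 in 21, A in 18, C1:A in 16 and A:C2 in 16, and all 4 did so in 11. No INT probe of the 24 did. None of the 24 was also called in spleen, where their level deviations ran from -1.55 to 0.88 with a median of -0.33. The share of all events called high in spleen is not given here, and in muscle it was 0.768%. The absence among 24 is therefore not taken as a result. In heart they ran from -1.37 to 3.96 with a median of 1.38. Both sets of deviations share comparator tissues with those of muscle and are given side by side only. Against the mean instead of the median of the other tissues, 14 levels were high.

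Of the 24, 6 were set apart because their A probe deviated by less than 1.05 units. Their level deviations ran from 2.32 to 3.99 and those of C1:C2 from 1.83 to 3.54, whereas those of A lay between -0.14 and 0.71. Their junction index deviations were all negative, between -3.31 and -1.12. The skipping junction passed 1.05 units in all 6, A:C2 in 2 and C1:A in none. Of the flanks, on which the level was called, C2 passed it in all 6 and C1 in 5.

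The 3 low transcripts were lowest in muscle of all 10 tissues. Both flanks passed the support threshold in each, which the call on their mean nearly ensures. Ben3984 is listed at 0 on all 7 probes in muscle. In the other tissues its level had a lowest of 2.5 in heart, a median of 2.90 and a highest of 5.52 in liver. The muscle array held 2 events with all 7 probes at 0 and the others 0 to 6, and what a listed 0 stands for is not given. Ben1115 had a level of 0.30 in muscle, against a lowest of 1.09 in heart, a median of 2.95 and a highest of 4.48 in lung. Its level deviated by -2.58, and that of Ben3984 by -2.81. Heart was the next lowest in both events, but its deviation was -0.30 for Ben3984 and -1.79 for Ben1115.

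Exons were examined in the 2722 events whose level exceeded the lowest 25% of all values, both in muscle and in the median of the other tissues. The junction index was past its threshold towards inclusion in 35 of them (1.29%) and towards skipping in 24 (0.882%). The nearest event inside the threshold stood at 1.63 towards inclusion and the nearest outside at 1.57, with -1.65 and -1.60 on the skipping side. An exon call also required the body index to deviate with the same sign. That left 29 exons more included in muscle (1.07%) and 17 more skipped (0.625%).

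The calls differed in how many probes carried them. After the level deviation of the event was subtracted, A, C1:A and A:C2 could each support a call by 1.05 units in its direction, and C1:C2 by 1.05 units in the opposite direction. Included exons backed by 3 or more probes numbered 15 (0.551%), and skipped ones 4 (0.147%). This support is relative to the flanks, so that a probe that held its level counted where the flanks moved. By their own deviations, without that subtraction, 10 of the 15 included exons had 3 supporting probes, whereas the other 5 and all 4 skipped exons had C1:C2 alone. Over all exon calls, that way of counting gave 11 included and 2 skipped exons backed by 3 or more probes. None of the 19 exons was past the threshold in spleen. The share of all events past it in spleen is not given here, and in muscle it was 1.29% and 0.882%. The absence among 19 is therefore not taken as a result about them. Index deviations resting on a single probe numbered 10 towards inclusion (0.367%) and 16 towards skipping (0.588%). Spleen shared 4 of the 10 and 9 of the 16. Sharing required the spleen index past the threshold in the same direction and the filter on the level passed for spleen as well. Past the threshold in spleen but not counted as shared were Ben1280 (2.10) and Ben3260 (1.62) towards inclusion and Ben956 (-3.30) towards skipping. With the exon calls that spleen shared by 2 robust SDs left out, 19 included and 8 skipped calls stayed, among them 13 and 3 backed by several probes. With an inclusion junction and C1:C2 required to be above the INT 95th percentile, in muscle or in the median of the others, 11 included and 9 skipped calls stayed, 8 and 1 of them backed by several probes. Leaving brain, heart or kidney out of the comparator moved the 4 skipped exons on several probes to 7.

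The 15 included exons had index deviations from 1.73 to 3.82 with a median of 2.07 in muscle. In heart the same exons deviated by -0.26 to 2.79 with a median of 1.96, and in spleen by -1.43 to 1.478 with a median of 0.01. Muscle had the highest index of the 10 tissues in 8 of the 15 and the next highest in 7. Muscle and heart were the pair at the top in 7, muscle and brain in 4, and muscle and spleen in 2. The muscle index minus the heart index ran from -0.59 to 1.86 with a median of 0.46. None of the 15 had a called level, so these were exons of transcripts whose flanks were not called high or low.

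In Ben1029 the whole exon stood apart in muscle. Its junction index was 1.20 in muscle, against a lowest of -3.06 in kidney, a median of -2.62 and a highest of -0.57 in salivary. Heart was just below salivary at -0.66. The A probe read 4.13 in muscle and 3.01 in heart, against a median of 1.26. The level was 4.10 in muscle, within the range of 3.53 to 5.37 of the other tissues, so the flanks did not stand apart.

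In Ben31 muscle, heart and brain formed a group of their own. The junction index was 1.06 in muscle, against a lowest of -2.42 in kidney, a median of -1.74 and a highest of 1.33 in brain, with heart at 0.76. The remaining 7 tissues were all at or below -1.39. The A probe read 5.12 in muscle, 5.93 in heart and 4.65 in brain, against a median of 1.84. The index deviated by 2.80 in muscle.

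**Figure D2:**
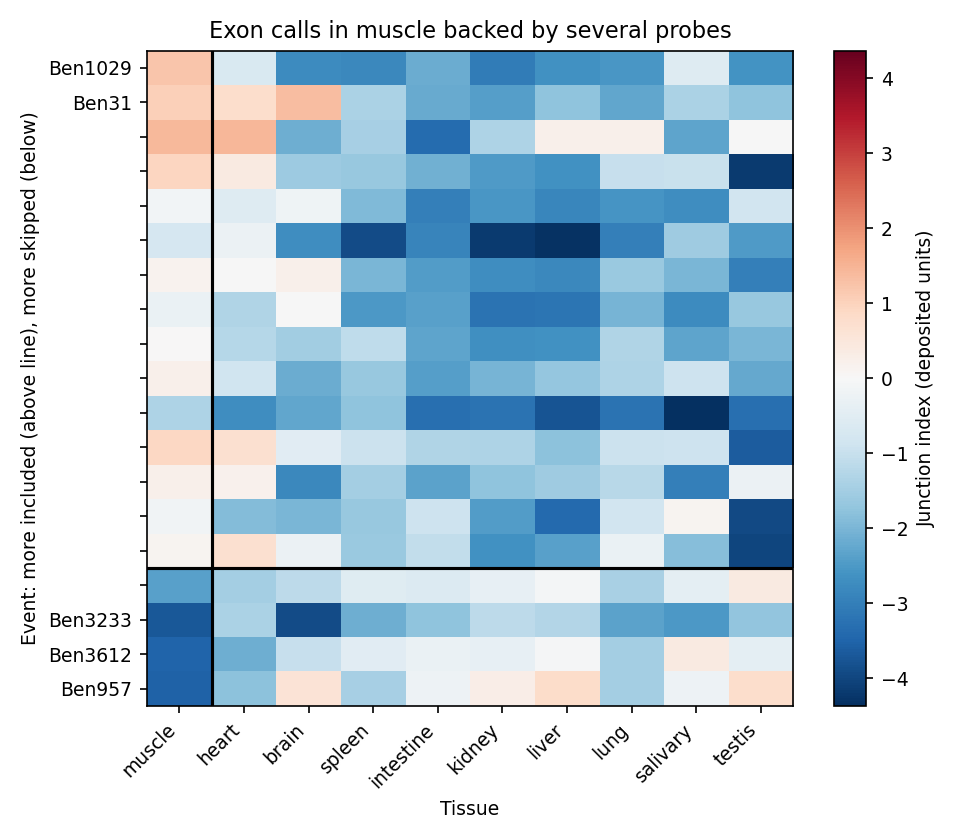
Junction index in deposited units (red above 0, more inclusion; blue below 0, more skipping) of the 19 exon calls in muscle backed by 3 or more probes, with the 15 more included above the line and the 4 more skipped under it, in each tissue (columns, muscle first). Heart shares the paler or red colour of muscle in many of the upper rows, with a median deviation of 1.96, while spleen has a median of 0.01. Brain is the highest of the other tissues in 4 of the 15.

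The 15 came in 2 forms, told apart after their values were seen, by whether A deviated by 1.05 units or more. In 9 of them the exon itself was higher. Their A probes deviated by 1.80 to 3.54, C1:A by 1.95 to 3.96 and A:C2 by 1.27 to 4.03, against -0.62 to 1.72 for C1:C2. The A probe read 3.42 to 5.12 in muscle, against medians of 1.24 to 2.17 in the other tissues. The median deviation of the skipping junction was 0.53, and it was higher by 1.05 units or more in 3 of the 9. Their levels deviated by -0.41 to 1.72 and were higher by 1.05 or more in 4, so in these the flanks were higher as well.

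In the other 6 the A probe changed little while its surroundings were lower. Their A probes counted as support only after the lower level was subtracted, so that level is part of how these 6 were counted. Their A probes deviated by -0.03 to 0.63, but their levels by -1.60 to -1.0 and C1:C2 by -2.29 to -1.11. The inclusion junctions stayed between -0.42 and 1.20. The A probes read 0.76 to 4.19 in muscle, against 0.87 to 3.91 for the medians of the other tissues. The median of the latter over the 6 was 1.18, beside an INT median of 1.21 over all arrays. A probe that dim has little room to fall with its flanks, and whether the exon held its level there was not tested. In heart the 9 exons of the first form had index deviations of 0.82 to 2.79 with a median of 1.98, and the 6 of the other form -0.26 to 2.61 with a median of 0.90. The transcripts of these 6 were thus lower in muscle by their flanks without reaching the threshold for level.

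The 4 skipped exons backed by several probes lay in transcripts that were higher in muscle. Support came from A, C1:A and A:C2 in all 4 and from C1:C2 in none. It rested on subtracting the higher level, so that level is part of how the 4 were counted, not a separate result. Their index deviations ran from -3.31 to -1.85. Level deviations were 1.95 to 3.33, and 3 of the 4 were called high. The skipping junction C1:C2 was higher by 1.98 to 3.51, against -0.14 to 0.71 for A, -0.50 to 0.45 for C1:A and -0.94 to 0.49 for A:C2. The A probes read 0.36 to 2.55 in muscle, against medians of 0.29 to 1.87 in the other tissues, beside an INT median of 1.21 over all arrays. The skipping junction was the only 1 of these 4 probe kinds to pass 1.05 units, although in Ben3612 lower inclusion junctions made up part of the index.

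Ben957 had the lowest index deviation of these, -3.31. Its junction index was -3.53 in muscle, against a lowest of -1.80 in heart, a median of -0.22 and a highest of 0.81 in liver. Its level was 5.34 in muscle, against a lowest of 1.53 in liver, a median of 2.02 and a highest of 4.72 in brain. Muscle and brain, both high in level, differed in their junctions. C1:A read 1.08 in muscle and 4.07 in brain, and A:C2 read 2.02 in muscle and 4.59 in brain. C1:C2 read 5.08 in muscle, 3.73 in brain and 3.37 in heart, against a median of 1.51. The A probe stayed at 1.26 in muscle and 1.94 in brain, so in brain the junctions and the body of the exon did not read alike.

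Ben3612 had a junction index of -3.48 in muscle, against a lowest of -2.14 in heart, a median of -0.43 and a highest of 0.38 in salivary. The level was 3.58 in muscle, against a lowest of 0.35 in spleen, a median of 1.70 and a highest of 3.43 in heart and brain alike. Testis followed at 2.59 and lung at 2.04, so the transcript was highest in muscle, heart and brain. Its inclusion junctions were dimmest in muscle among these 3, with C1:A at 0.21 in muscle, 0.78 in heart and 1.74 in brain, and A:C2 at 0.20 in muscle, 1.13 in heart and 3.04 in brain. A further 4 skipped events had 2 supporting probes. In all 4, muscle and heart had the 2 lowest indices of the 10 tissues, and heart deviated by -2.81 to -1.40. Towards inclusion, 8 events had 2 supporting probes, and these went less with heart. Muscle and heart had the 2 highest indices in 1 of the 8 and muscle and spleen in 3, and heart deviated by -1.33 to 1.88. Spleen shared 3 of the 8.

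**Figure D3:**
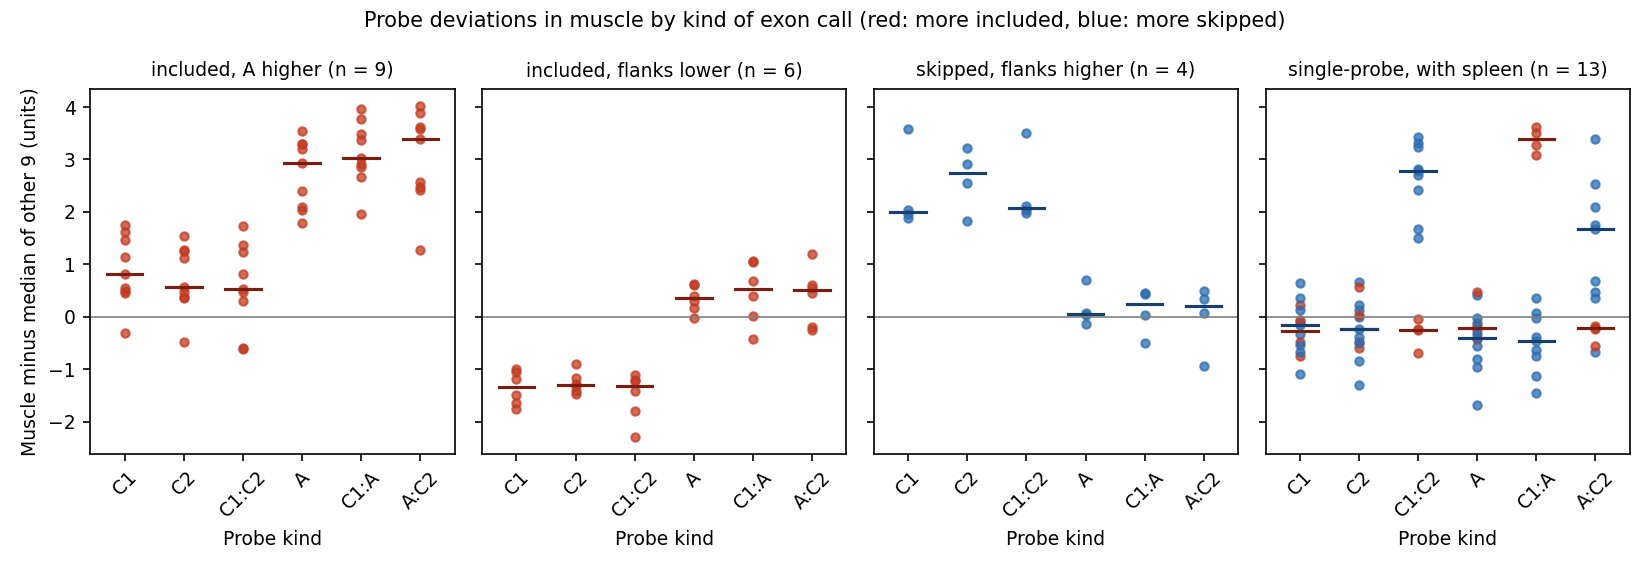
Deviation of muscle from the median of the other 9 tissues (y axis, units) for each probe kind (x axis) in 4 kinds of exon call. Each point is 1 event, red where more included and blue where more skipped, and bars are medians. In the 9 exons of the first panel A and both inclusion junctions are high, in the 6 of the next the flanks and C1:C2 are low, in the 4 of the third the flanks and C1:C2 are high, and in the 13 of the last C1:A (red) or C1:C2 (blue), in part with A:C2, is high, and the flanks lie between -1.31 and 0.67.

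The A probe set against its flanks gave a further view of the exon that uses no junction. The body index was higher in muscle in 35 of 2722 events (1.29%) and lower in 19 (0.698%). The nearest values inside and outside the threshold were 1.51 and 1.479 on the higher side, and -1.57 and -1.37 on the lower side. By the same rule as for the junction index, with the filter on the level also passed for spleen, spleen shared 12 of the 35 higher calls and 5 of the 19 lower ones. Ben2883, at 1.73 in spleen, was past the threshold there but was not counted as shared. The share of all events called in spleen is not given here. With calls that spleen shared by 2 robust SDs left out, 18 higher and 12 lower events stayed. With A and the level required to be above the INT 95th percentile in the same way, 11 higher and 1 lower stayed.

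The junction index deviated in the same direction in 19 of the 23 higher calls that spleen did not share and in 9 of the 12 that it shared. The sizes were apart, with a median index deviation of 1.30 in the 23 and 0.14 in the 12. The A probes themselves deviated by a median of 1.10 in the 23 and 2.31 in the 12. Over all 35, the A probe passed 1.05 units in 21, the junction index passed its own threshold in 11, and 10 were among the included exons backed by several probes. None had a called level.

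Both named examples of a higher body index were of the kind shared with spleen. In Ben45 the A probe read 7.03 in muscle, against a lowest of 2.07 in heart, a median of 2.69 and a highest of 7.14 in spleen, followed by intestine at 4.53. The body index deviated by 4.59 in muscle, and spleen by 4.05. The inclusion junctions did not share this: C1:A read 3.24 in muscle against a median of 3.05, and A:C2 1.16 against 1.38. In Ben1054 the A probe read 6.05 in muscle, against a lowest of 1.41 in kidney, a median of 2.11 and a highest of 6.09 in spleen, with intestine at 3.78. Its body index deviated by 3.96 and its junction index by 0.08. In both events 1 bright probe set muscle and spleen apart while the other probes of the exon did not.

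Among the 19 lower body calls, the A probe itself was lower by 1.05 units in only 2. In the others the flanks were higher. The level was called high in 6 of the 19, and 4 were the skipped exons backed by several probes. In the 14 that spleen did not share, the junction index deviated in the same direction in 13, and it did so in 1 of the 5 shared. The 5 shared with spleen rested on C2, which deviated by 1.97 to 3.96, against -0.16 to 0.97 for C1.

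The lowest body deviations were those of Ben957, at -3.59, and Ben3233, at -2.81. The A probe of Ben957 read 1.26 in muscle, against a lowest of 0 in heart, a median of 1.36 and a highest of 1.94 in brain. Its body deviation thus came from the flanks, whose level deviated by 3.33. Ben3233 had a level of 4.76 in muscle, against a lowest of 1.09 in liver, a median of 2.37 and a highest of 4.92 in brain. Its A probe read 0.36 in muscle, against a lowest of 0.10 in salivary, a median of 0.29 and a highest of 1.24 in heart. The exon was at the dim end of the scale in every tissue, and the flanks were high in muscle and brain. Its junction index deviated by -1.96.

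Single probes told the other side of the array. Of all 21882 probes, 328 were high in muscle (1.5%) and 20 were low (0.0914%), of which 7 are listed at 0 and 3 were low in spleen too. By kind, the calls numbered 27 for C1 (0.864%), 44 for A (1.41%), 38 for C2 (1.22%), 84 for C1:A (2.69%), 56 for A:C2 (1.79%), 52 for C1:C2 (1.66%) and 27 for INT (0.864%). Spleen was high on 146 of the 328 as well, which is 44.5%. The share of all probes high in spleen is not given here. These were 2 of the 27 C1 probes, 6 of the 38 C2 and 13 of the 44 A probes, but 49 of the 84 C1:A, 23 of the 56 A:C2, 26 of the 52 C1:C2 and 27 of the 27 INT probes. Without them, 25 C1, 31 A, 32 C2, 35 C1:A, 33 A:C2, 26 C1:C2 and no INT probes were high. The excess of junction probes in muscle was thus carried by the probes that spleen shared.

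**Figure D4:**
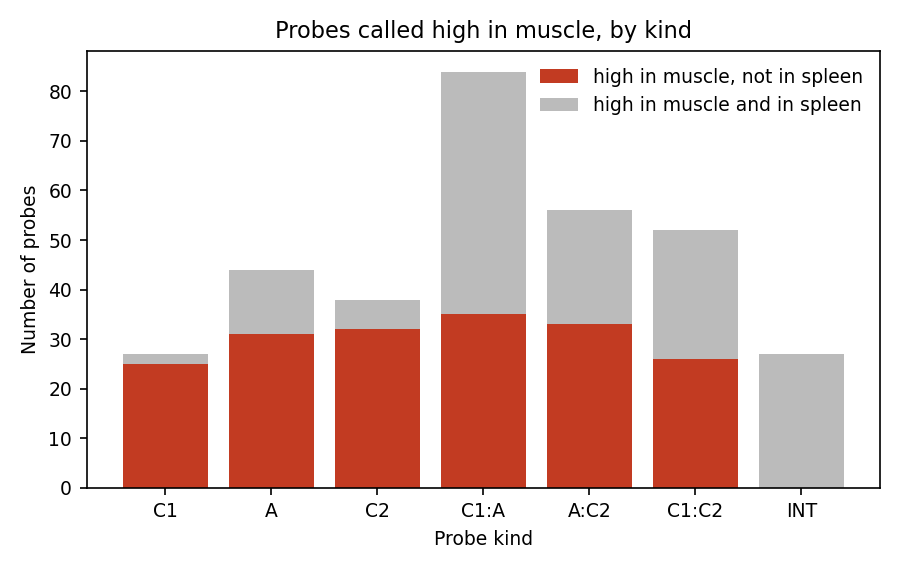
Number of probes called high in muscle (y axis) for each of the 7 probe kinds (x axis), split into those not called high in spleen (red) and those also high in spleen (grey, stacked on top). The red parts lie between 25 and 35 for the exon and junction kinds and are absent for INT, where all 27 are grey; the tallest grey part is that of C1:A, at 49.

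Sharing with spleen went with standing alone in the event. Of the events with exactly 1 high probe among the 6 exon and junction probes, 86 of 110 had that probe high in spleen, which is 78.2%. Of the events with 2 high probes, 13 of 36 had at least 1 high in spleen, which is 36.1%. Of those with 3 or more it was 2 of 30, or 6.67%, and in the 3 events with all 6 probes high it was none. In the 86, the other 5 probes of the event had a median deviation of -0.006, and 35 of these 430 probes were past 1.05 units either way. The event numbers of the 86 ran from 45 to 4292, with a median of 2011.5, against 2132.5 for all events.

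The events with 3 or more high probes and none high in spleen numbered 28. They held 19 of the level calls and 4 of the included exons backed by several probes, and 5 were neither. Muscle had the highest mean of the 6 probes in 16 of them. Heart was the highest of the other tissues in 14, brain in 4 and spleen in none.

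On the shared probes, muscle and spleen read nearly the same value. The deposited values of the 146 ran from 2.38 to 7.03 in muscle and from 2.38 to 7.14 in spleen, with a median of 4.17 in muscle and 4.25 in spleen, against medians from 0.73 in lung to 1.52 in intestine in the other 8 tissues. Both lay above all other 8 tissues on 131 of them, by a median of 1.78 units over the next tissue. After centring, muscle minus spleen had a median of -0.10 and an SD of 0.118, and 135 of the 146 differences (92.5%) were within 0.25 units. Muscle was the lower of the pair on 131.

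No such closeness was seen on probes high in muscle and in heart or brain. Lung and salivary, nearer to muscle over all probes, were not compared in this way. For the 67 probes high in muscle and heart, muscle minus heart had a median of -0.16 and an SD of 0.765, and 24 (35.8%) were within 0.25 units. For the 39 high in muscle and brain, muscle minus brain had a median of -0.04 and an SD of 1.05, and 7 (17.9%) were within 0.25. Over all probes, the robust SD of muscle minus spleen was 0.254 for INT, 0.440 for C1:A, 0.522 for C1 and 0.610 for C2. The corresponding values of muscle minus heart were 0.582 for INT, 0.643 for C1:A, 0.645 for C1 and 0.660 for C2. Lung and salivary lay nearer to spleen: muscle minus lung had 0.342 for INT, 0.503 for C1:A, 0.552 for C1 and 0.588 for C2, and muscle minus salivary had 0.361, 0.523, 0.546 and 0.577 for the same kinds. For C2 both were narrower than spleen.

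**Figure D5:**
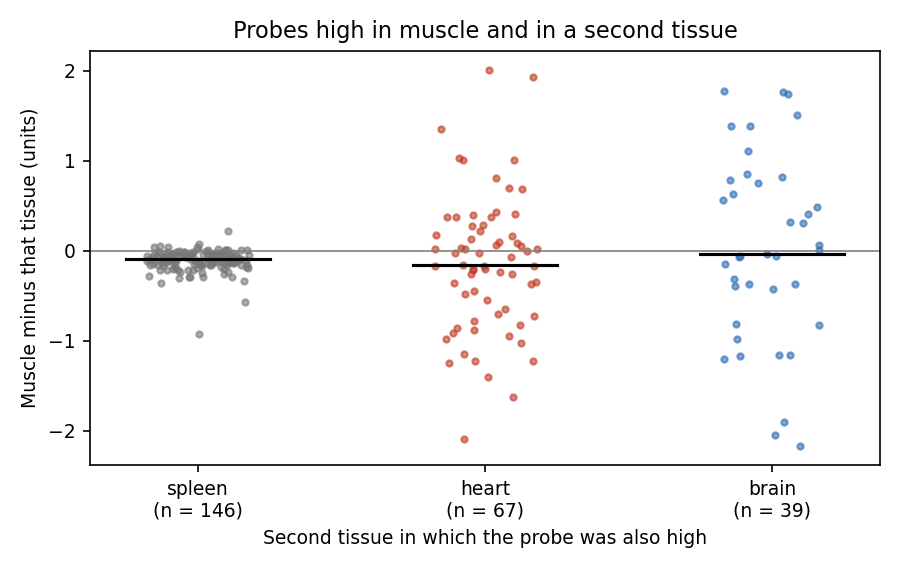
Muscle minus the second tissue on centred arrays (y axis, units) for probes high in muscle and also in spleen (n = 146), heart (n = 67) or brain (n = 39). Points are probes and bars are medians. The spleen points form a narrow band around -0.10 (SD 0.118), whereas the points scatter with an SD of 0.765 for heart and 1.05 for brain.

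Index deviations that rest on a single probe after the level was subtracted, and were counted as shared with spleen, numbered 13. The filter on the level was passed for spleen in each. In the 4 towards inclusion C1:A deviated by 3.09 to 3.63, while the other 5 probe kinds lay between -0.75 and 0.58. Ben2895 read 3.36 on C1:A in muscle, against a lowest of 0 in kidney and liver, a median of 0.10 and a highest of 3.60 in spleen. All the other tissues were at or below 0.44. Its index deviated by 2.22 in muscle, and spleen by 2.08. Ben2262 read 4.69 on C1:A in muscle, against a lowest of 0 in salivary, a median of 1.13 and a highest of 5.41 in testis, with spleen at 4.73. The level was 1.59 in muscle and 1.64 in spleen, against 5.86 in testis, where the other probes of the transcript were high too.

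In the 9 towards skipping C1:C2 deviated by 1.5 to 3.43, and A:C2 was also higher by 1.05 units or more in 5, although A:C2 reports inclusion. Ben4135 read 3.83 on C1:C2 in muscle, against a lowest of 0 in lung, a median of 1.0 and a highest of 3.93 in spleen. Kidney followed at 1.78. Its index deviated by -3.18 in muscle, and spleen by -2.99, while its A probe read 2.33 in muscle against a median of 3.18. Ben1006 read 3.73 on C1:C2 in muscle, against a lowest of 1.60 in intestine, a median of 2.30 and a highest of 3.93 in spleen. Its index deviated by -2.79, and spleen by -1.71. Here other probes were lower in muscle as well. A read 0.36 in muscle and 1.23 in spleen, against a median of 1.99. C1:A, at 1.23, and C2, at 1.75, were the lowest of the 10 tissues in muscle, whereas spleen read 2.69 on C1:A and 2.91 on C2.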

How the data were processed

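The deposited table holds 1 column per tissue, and its values were treated as a score made by the authors, never below 0. Of scale base, scanner, background correction and normalization the labels and the table state nothing. Array medians lay between 2.04 and 2.19, and precision is limited by the number of arrays. No column was left unused, and the muscle column was compared with the median of the other 9.

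Robust SDs were 1.4826 times the median absolute deviation: 0.527 for probes, 0.537 for level, 0.401 for the junction index and 0.372 for the body index. INT probes entered no index. Since every tissue had only 1 sample, differences were described without a model or p-value. The comparisons, thresholds and lists were chosen with earlier results of these data known. Events were named by rule: without gene names, at most 2 with the highest and 2 with the lowest deviation among the calls of level, several-probe exon calls, body index and single-probe events shared with spleen. The gene lists set out for named events were not applied.

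Alternatives were quantile normalization, columns as deposited, other comparators, thresholds, support rules, indices and filters on low values. The steps were tested on simulated data. Python 3.11.15, numpy 2.4.6, pandas 2.3.3 and matplotlib 3.10.9 were used.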

Additional observations from a re-analysis of the deposited data

How the results depend on the processing

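Of 209 recomputed counts, 152 stayed within 1.5 times the count reported, and 57 did not. Of 224 recomputed deviations of named events, 219 kept their direction and their side of the threshold, 5 fell short of it and none reversed. The 5 were Ben2895 (2.22), Ben2262 (1.94), Ben3984 (-2.81) and Ben1115 (-2.58) at 6 robust SDs, and Ben2262 (1.44) with the mean of the other tissues as comparator. The cause of the shifts below was not tested, apart from looser or stricter thresholds and filters, which act by construction. At 3 robust SDs, 60 levels were high and 15 low, 617 probes high and 101 low, 58 exons included and 39 skipped, 73 body indices higher and 49 lower, 7 skipped exons rested on several probes, and 33 single-probe events were shared with spleen. At 6 robust SDs the same counts were 3 and 0, 97 and 2, 8 and 7, and 10 and 5, with 5 included and 2 skipped exons resting on several probes and 2 single-probe events shared with spleen. Requiring the probes behind a call to exceed the 95th percentile of INT probes, in muscle or in the median of the others, gave 1 low level, 13 low probes, 11 included and 9 skipped exons (8 and 1 on several probes), 8 single-probe events shared with spleen, and 11 higher and 1 lower body indices. Skipped exons on several probes numbered 9 after quantile normalization and 7 without brain, without heart or without kidney in the comparator. Single-probe events shared with spleen numbered 20 after quantile normalization, 8 against the mean of the other tissues and 23 without a filter on the flanks. Against that mean, 14 levels and 198 probes were high. With inclusion taken from A:C2 alone, 11 exons were included and 11 skipped, 6 and 2 on several probes, and 4 single-probe events were shared with spleen. From C1:A alone, 53 were included and 31 skipped, and 64 single-probe events were shared. A support threshold of 1 robust SD gave 24 included and 9 skipped exons on several probes, and one of 3 gave 8 included. With C1 alone as level, 1 level was low. Of the settings chosen after seeing the data, leaving out calls shared with spleen gave 170 high probes, 19 included and 8 skipped exons, and 18 higher and 12 lower body indices, and requiring each flank to exceed the lowest 25% gave 27 included and 14 skipped exons. Counting support without subtracting the level, also chosen after seeing the data, gave 11 included and 2 skipped exons on several probes. No background level is stated for these arrays, so signal over background could not be given. No paired analysis was possible because no tissue was sampled more than once.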
